A study of Mus musculus with 30 samples.

Results

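The 10 immediate early genes Fos, Fosb, Jun, Junb, Egr1, Nr4a1, Ier2, Dusp1, Atf3 and Btg2 were followed in livers and retinas of mice fed a low or a high glycemic index diet. They were chosen by symbol, and all 10 were found among the 49398 gene rows of each tissue's count table. All mice were wild-type C57BL/6J males, housed singly and pair-fed. The low glycemic index (LGI) diet held starch that was 70% amylose with 30% amylopectin, while that of the high glycemic index (HGI) diet was amylopectin at 100%, with the other macronutrients matched. The 1-month feeding began at 6 months of age and ended at 7 months, and the 12-month feeding began at 12 months of age and ended at 24 months. The 2 feeding lengths came from separate cohorts, so age, feeding length and cohort cannot be told apart. Tissues were taken in the afternoon after a 6 h fast, as a piece of liver or a whole retina, and RNA was sequenced in bulk. The labels gave 4 retinas in each of the 4 groups, 4 livers in each LGI group and 3 livers in each HGI group.

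Immediate early genes are transcribed within minutes of a stimulus by factors already present in the cell, and most of their mRNAs decay quickly. Kinases of the ERK and p38 pathways act through serum response factor and its Elk partners, and cAMP or calcium acts through CREB at cAMP response elements (CREs). Light and neuronal activity raise these genes in the retina, hormones, feeding and injury raise them in the liver, and in any tissue they also respond to the handling that precedes freezing. Fos, Fosb, Jun and Junb encode subunits of the AP-1 transcription factor, Egr1 a zinc finger factor, Nr4a1 an orphan nuclear receptor and Atf3 a stress-induced factor of the ATF/CREB family. Dusp1 encodes a phosphatase that switches off MAP kinases, Btg2 an antiproliferative factor that promotes mRNA deadenylation, and Ier2 a small nuclear protein.

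Livers held 11311632 to 44860964 counts and retinas 16810150 to 34144514. The summed hepatocyte markers ran from 80200 to 116000 CPM (counts scaled to a common library size) in livers, and each retina held 0.00385% to 0.124% of the mean liver's sum. The summed rod markers ran from 33700 to 61100 CPM in retinas, and each liver held 0.00485% to 0.0864% of the mean retina's sum. Transcripts of 4 lens genes set 3 retinas apart. LGI 1-month retina 1 held 32.6 CPM, LGI 1-month retina 3 held 54.9 CPM and HGI 1-month retina 6 held 49.9 CPM. LGI 12-month retina 22 held 7.93 CPM of them, and the other retinas held 0.156 to 0.736 CPM. Retina comparisons of the members were therefore also fitted without the 3 retinas over 10 CPM. Members that this added or took away are named below. As these are bulk samples, fewer cells of a type and less RNA per cell cannot be told apart.

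The members differed in level by tissue. Per kilobase of transcript, Btg2 stood highest in the retina, with a median of 62.8 TPM (counts divided by transcript length and scaled to a common total), above Dusp1 at 21.1 TPM in 16 of 16 retinas. Fos, at 16.6 TPM, and Egr1, at 16.1 TPM, could not be ordered, since Fos was the higher in 8 of 16 retinas. Atf3 followed at 10.9 TPM, Nr4a1 at 9.56 TPM and Jun at 8.37 TPM, and these neighbours also overlapped. Ier2, at 3.75 TPM, lay below Jun in every retina without overlap, Fosb, at 1.28 TPM, lay below Ier2 without overlap, and Junb was lowest at 0.604 TPM.

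In the liver all neighbours in the order overlapped across the 14 libraries. Dusp1 led at 8.72 TPM, ahead of Btg2 at 2.38 TPM in 13 of 14 livers. Egr1 had a median of 2.06 TPM, Jun of 1.48 TPM and Ier2 of 1.46 TPM. Atf3, at 0.671 TPM, Fos, at 0.346 TPM, and Nr4a1, at 0.323 TPM, were scarce, and Junb and Fosb were scarcer still at 0.217 and 0.0121 TPM. Fosb was listed at 0 in 8 of the 14 livers and reached 5 counts at most, and Junb held 1 to 38 counts per liver. Fosb and Junb in liver and Junb in retina, where it held 2 to 32 counts or 0.123 to 1.05 CPM, averaged under 1 CPM in every group and were not tested. That filter used library totals without scaling factors. This left 8 members in liver and 9 in retina. In liver, Fos passed the filter only through the HGI 12-month group, whose unscaled mean was 1.08 CPM, and Atf3 only through the LGI 12-month group, at 1.02 CPM. Nr4a1 passed only through the 2 HGI groups, at 1.13 and 1.88 CPM.

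A limma-voom model was fitted to all 30 libraries together, without pairing by mouse, which the labels do not give. Fosb entered it only through the retina, where it is high, so its levels are left as a description and it is not counted. Of the other 8 members 5 were higher in retina and 2 lower at an adjusted p under 0.05, where 52% of all genes were higher and 40% lower. On the log2 scale Fos was higher in retina by 3.67 (SE 0.36, limma adjusted p = 1.3e-10), Nr4a1 by 2.44, Btg2 by 2.43, Atf3 by 2.34 and Egr1 by 0.99. These 5 kept their direction under every scaling tried. Jun differed by 0.15 (limma adjusted p = 0.371). Ier2 was lower in retina by a log2 difference of -0.82 and Dusp1 by one of -0.74, but both turned to 0.74 and 0.82 higher in retina when library totals were used without scaling factors. That alternative, chosen after the data were seen, moved the median of all genes from 0.37 to 1.93. Tissue, dissection and library handling cannot be told apart in this comparison.

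The members differed in their spread between mice of the same group. In the retina, Egr1 had a residual SD of 0.915 on the log2 CPM scale, larger than that of 98.8% of the 15054 genes tested, against a median of 0.226 over all genes. Fos followed with an SD of 0.657 at the 97.6 percentile, and Nr4a1 with 0.484 at the 92.3 percentile. Fosb, Dusp1 and Ier2 lay at the 78.2, 75.6 and 61.3 percentiles. Atf3, with an SD of 0.183, Jun, with 0.163, and Btg2, with 0.0992, varied less than the median gene, and Btg2 lay at the 7.31 percentile. In the liver all 8 members tested were among the more variable genes, from the 86.1 percentile for Ier2 to the 99.2 percentile for Nr4a1, whose SD was 1.23 against a median of 0.300. These percentiles are over genes of every level. The edgeR coefficient of variation, against that of genes of like level, was in liver 36.1% against 35.5% for Fos, 34.7% against 32.6% for Ier2 and 74.6% against 34.6% for Nr4a1. In retina it was 21.3% against 27% for Fosb and 18.2% against 26.5% for Ier2, but 53.1% against 16.9% for Egr1 and 38% against 18.1% for Fos.

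Single libraries stood out for many members at once. HGI 1-month retina 6 lay above the mean of its group for 9 of 9 members and was the highest of all 16 retinas for 6 of them, while HGI 1-month retina 8 lay below its group mean for every one of the 9. LGI 12-month retina 23 was above its group mean for 9 of 9 by smaller amounts, with a median deviation of 0.14 against 0.39 in retina 6. LGI 1-month retina 1 was the lowest of all retinas for 3 members and the highest for 1. Among livers, LGI 1-month liver 33 was above its group mean for 8 of 8 members, with a median deviation of 0.95, and the highest of all livers for 3. HGI 12-month liver 51 was above its group mean for 6 of 8.

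**Figure D1:**
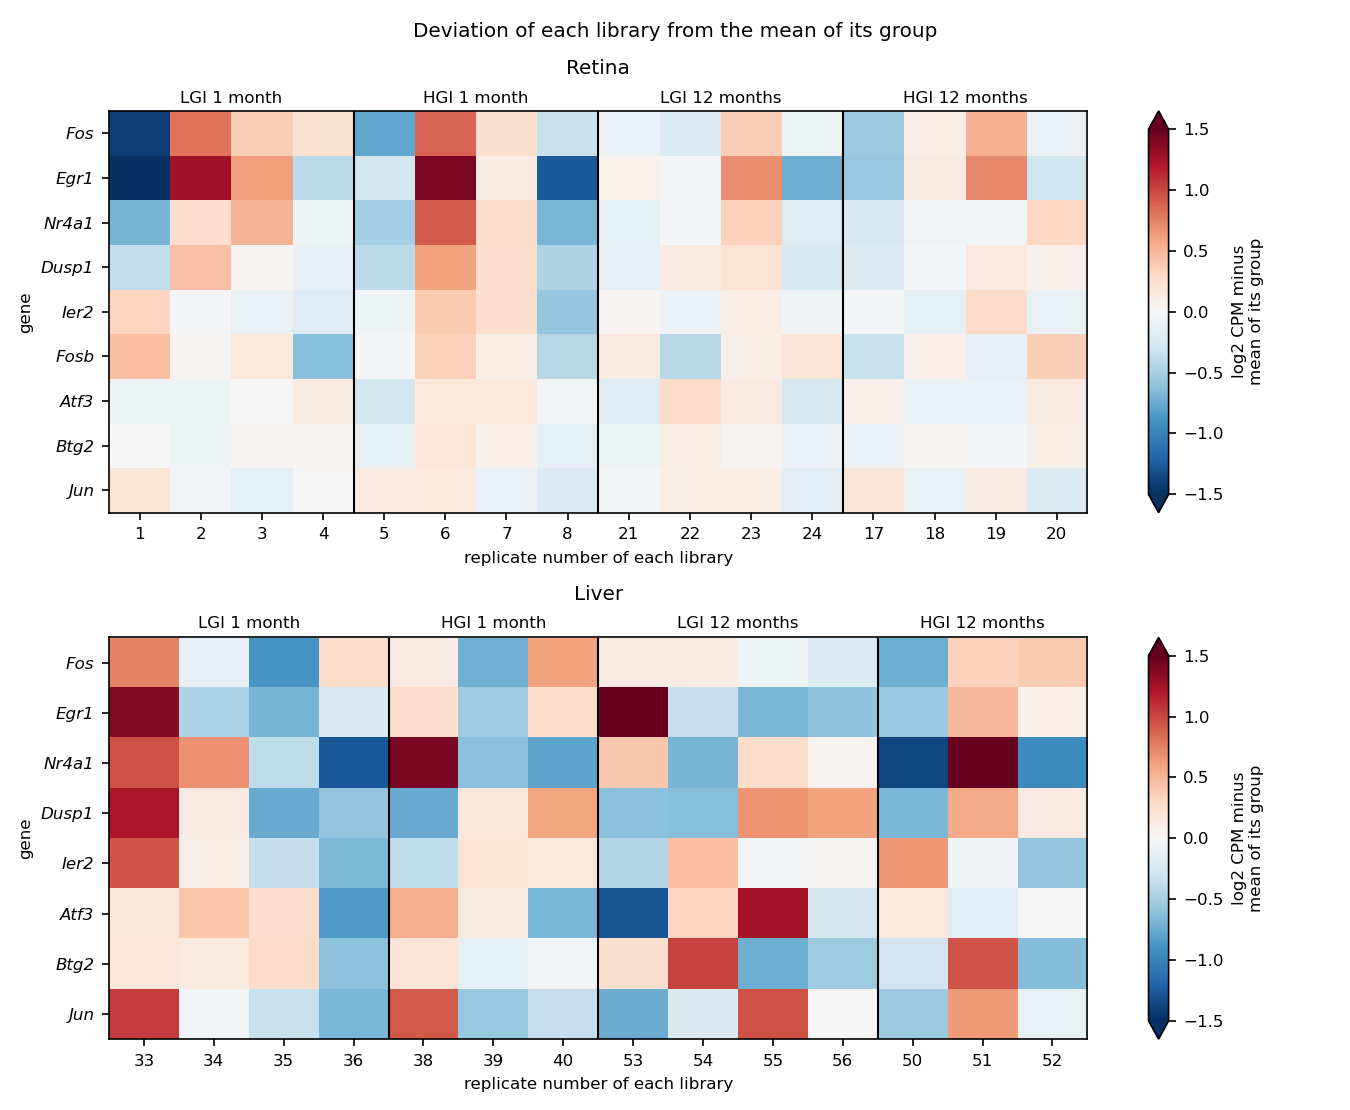
Heat map of the deviation of each library from its group mean on the log2 CPM scale, with members in rows and libraries, named by replicate number, in columns for each tissue. HGI 1-month retina 6 is above its group mean for 9 of 9 members and LGI 1-month liver 33 for 8 of 8.

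Whether members were high in the same mice was asked by relating each to Fos, after removal of the group means, over 15 relations. In the 16 retinas Fos went with Egr1 (Pearson r = 0.86, Spearman rho = 0.85, permutation adjusted p = 0.00832 and 0.00382). It also went with Dusp1 (r = 0.83, rho = 0.84, permutation adjusted p = 0.00832 and 0.0091) and with Nr4a1 (r = 0.81, rho = 0.80, permutation adjusted p = 0.0143 and 0.0175). Egr1 and Nr4a1 are transcription factors of the early response, and Dusp1 is its phosphatase. Without retinas 1 and 6, the 2 farthest from the median of Fos, r was 0.77 for Egr1, 0.81 for Dusp1 and 0.70 for Nr4a1.

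For the other members no relation to Fos in the retina passed the adjusted limit. Btg2 had r = 0.41, Atf3 0.30, Ier2 0.14, Fosb 0.00 and Jun -0.23, and whether these differ from the r of Egr1, Dusp1 and Nr4a1 was not tested. Within the 8 younger retinas r with Fos was 0.87 for Egr1, 0.86 for Dusp1 and 0.87 for Nr4a1, and within the 8 older retinas it was 0.83, 0.67 and 0.47. Other members also varied between these subsets. In the younger retinas r was 0.60 for Atf3, 0.50 for Btg2, 0.04 for Ier2, -0.10 for Fosb and -0.35 for Jun. In the older ones it was 0.66 for Ier2, beside 0.67 for Dusp1, 0.30 for Fosb, 0.18 for Btg2, 0.02 for Jun and -0.18 for Atf3. Without the 3 retinas with lens transcripts r was 0.69 for Egr1, 0.78 for Dusp1 and 0.65 for Nr4a1 over 13 retinas, and it was 0.52 for Ier2, 0.41 for Fosb, 0.36 for Btg2, 0.11 for Atf3 and -0.21 for Jun. In the 14 livers only Egr1 passed (r = 0.66, rho = 0.84, permutation adjusted p = 0.0132 and 0.00375), with r = 0.61 without livers 35 and 50, 0.83 within the 7 younger and 0.50 within the 7 older livers. It did not pass when the group means were kept (r = 0.56, permutation adjusted p = 0.116). Dusp1 in liver had r = 0.46, Jun 0.39 and Nr4a1 0.31.

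**Figure D2:**
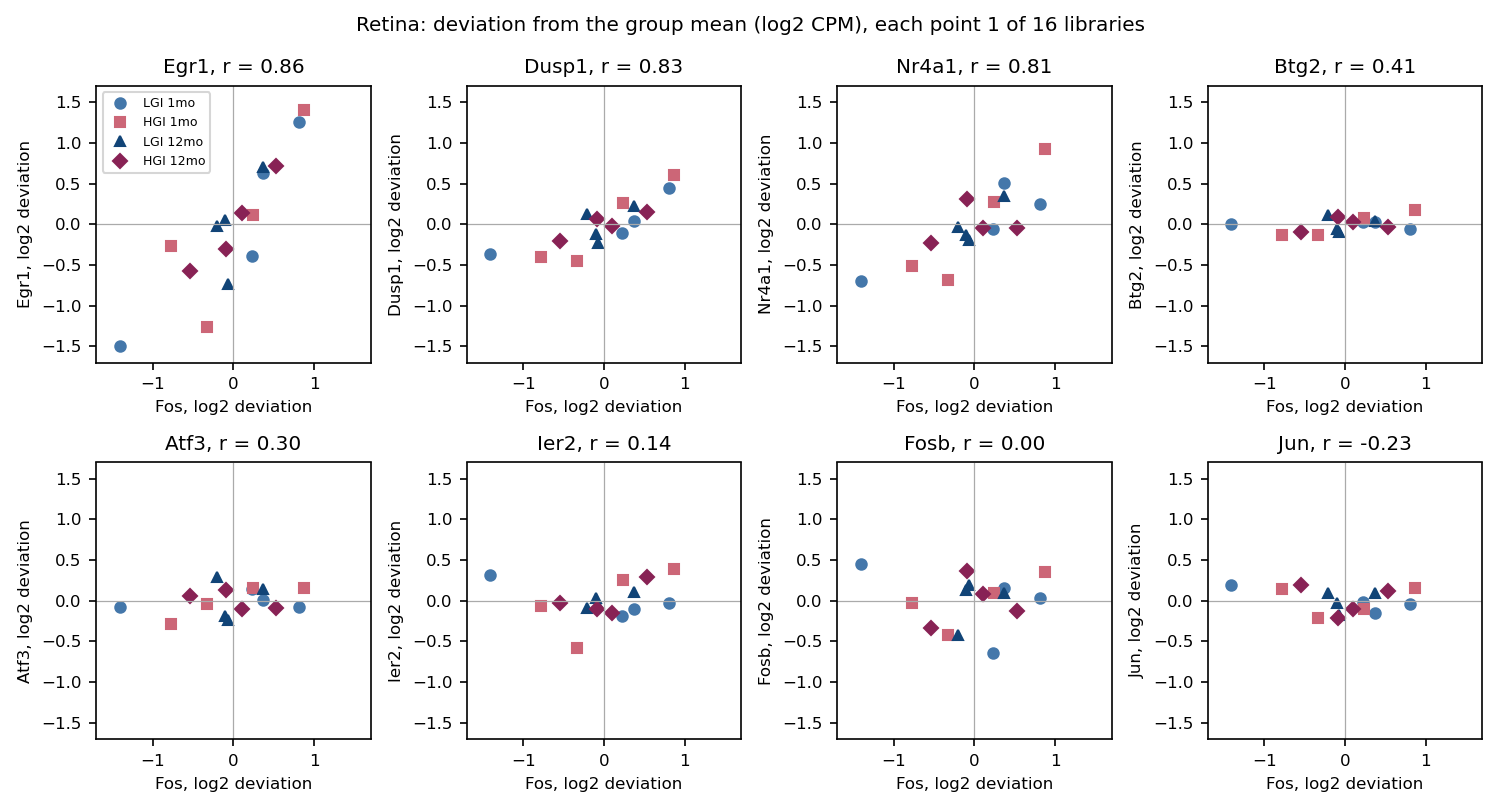
Scatter plots of the log2 CPM deviation of each member from its group mean against that of Fos, each point 1 of the 16 retinas, coloured by group. Egr1, Dusp1 and Nr4a1 lie along a rising line (r = 0.86, 0.83 and 0.81), while r is -0.23 for Jun and 0.00 for Fosb.

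The sequences before the annotated starts are shown for Fos and 2 of the genes that went with it, and for the 2 members named most often in the retina comparisons, Atf3 and Btg2. They are the 250 bases upstream of the start, read 5′ to 3′ on the gene's strand from RefSeq on GRCm38.p6, where Fos is at chr12:85473640-85473889 on the plus strand, Nr4a1 at chr15:101266596-101266845 on the plus strand, Dusp1 at chr17:26508473-26508722 on the minus strand, Atf3 at chr1:191183334-191183583 on the minus strand and Btg2 at chr1:134079156-134079405 on the minus strand. Capitals mark CRE letters (TGACGTCA, or its parts TGACG and CGTCA) and, in Fos, a TATAAA run.
Fos: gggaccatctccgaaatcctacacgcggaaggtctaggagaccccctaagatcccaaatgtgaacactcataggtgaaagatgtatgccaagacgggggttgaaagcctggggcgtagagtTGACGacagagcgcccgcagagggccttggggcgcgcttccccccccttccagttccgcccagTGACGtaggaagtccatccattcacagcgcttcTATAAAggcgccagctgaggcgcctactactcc
Nr4a1: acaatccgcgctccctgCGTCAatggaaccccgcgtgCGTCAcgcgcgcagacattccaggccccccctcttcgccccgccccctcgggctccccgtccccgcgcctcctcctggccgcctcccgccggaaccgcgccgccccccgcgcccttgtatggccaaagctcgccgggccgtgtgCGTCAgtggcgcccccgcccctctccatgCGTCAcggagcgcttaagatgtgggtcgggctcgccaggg
Dusp1: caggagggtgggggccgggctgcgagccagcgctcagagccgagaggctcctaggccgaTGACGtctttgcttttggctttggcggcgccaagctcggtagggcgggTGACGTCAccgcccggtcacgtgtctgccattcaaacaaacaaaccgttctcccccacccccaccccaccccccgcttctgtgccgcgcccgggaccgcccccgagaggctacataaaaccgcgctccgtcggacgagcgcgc
Atf3: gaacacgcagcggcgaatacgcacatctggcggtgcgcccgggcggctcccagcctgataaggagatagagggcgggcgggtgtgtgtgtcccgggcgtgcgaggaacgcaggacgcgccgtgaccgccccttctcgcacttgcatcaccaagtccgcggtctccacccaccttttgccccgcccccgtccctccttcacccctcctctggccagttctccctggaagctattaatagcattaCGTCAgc
Btg2: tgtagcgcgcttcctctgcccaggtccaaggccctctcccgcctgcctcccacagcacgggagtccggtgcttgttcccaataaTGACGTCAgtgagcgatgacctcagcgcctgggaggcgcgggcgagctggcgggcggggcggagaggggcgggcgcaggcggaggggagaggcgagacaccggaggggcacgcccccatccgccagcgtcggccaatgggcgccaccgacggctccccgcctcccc

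An entry was held for 8 of the 10 members. TGACG on either strand, the CRE part to which CREB and ATF factors bind, was in 7 of the 8, against 17.8% of 32851 promoters of the same length. Nr4a1 held it at 4 places, the nearest 36 bases upstream of the start, and Fos at 2 places, 62 and 125 bases upstream. The palindrome TGACGTCA, which contains that part on both strands, was in Dusp1, 136 bases upstream, and in Btg2, 159 bases upstream, against 1.55% of promoters. Atf3 held CGTCA 3 bases before the start, Fosb held TGACG 56 bases and Junb 102 bases upstream, and Jun held none in this window. The AP-1 letters TGANTCA were in 0 of the 8 (6.75% of promoters), the CArG box of serum response factor in 0 of the 8 (1.47%), and TATAAA in Fos alone, 28 bases upstream (12.4%). Only exact matches in this window were counted, no sequence farther upstream was searched, and Egr1 and Ier2 were not among the 8. Whether these genes hold such sites elsewhere is not answered. Fos, with the part TGACG, lay at the 97.6 percentile of spread of all retinal genes, and Btg2, with the palindrome, at the 7.31 percentile. A relation of these letters to spread was not tested.

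The first diet question was whether 1 month of HGI feeding changed these genes in the retina. A member was called past the limits of the study at an unadjusted limma p under 0.05 with a log2 difference of at least 0.32 in retina or 0.58 in liver, and adjusted p-values are over all genes tested in that tissue. Shares of all genes in the diet and age comparisons are from this limma fit, and none was taken for the other methods. After 1 month 0 of 9 members passed in retina, where 1.57% of all genes did, 0 had an unadjusted p under 0.05 (2.68% of all genes), and edgeR and DESeq2 also called 0. Fos held 7.31, 34.4, 25.4 and 23.1 CPM in the LGI retinas 1 to 4 and 12.3, 39.1, 25.1 and 16.9 CPM in the HGI retinas 5 to 8. Retinas 1 and 5 were low and retinas 2 and 6 high, so each diet spanned most of the range and the groups overlapped.

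Egr1 held 9.19, 63.0, 40.7 and 20.0 CPM on LGI and 22.6, 72.6, 29.6 and 11.3 CPM on HGI, a range wider within each diet than between them. Nr4a1 held 5.87, 11.4, 13.7 and 9.20 CPM on LGI and 9.61, 26.1, 16.6 and 8.47 CPM on HGI. Dusp1 held 12.6, 22.0, 16.7 and 15.1 CPM on LGI and 13.9, 28, 22.1 and 13.5 CPM on HGI. For all of these genes retina 6 was the highest, and 0 of 9 members were free of overlap between diets, where 1.36% of all genes were.

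The log2 differences of the 9 members ran from -0.03 to 0.52, and every limma adjusted p was 0.999. Fosb held 2.44, 1.81, 1.98 and 1.10 CPM on LGI and 2.44, 3.21, 2.66 and 1.84 CPM on HGI. Fosb passed the limits when LGI retina 1 was left out (0.61) or HGI retina 8 was (0.61), and Nr4a1 passed without HGI retina 8 (0.78). The direction of Fos was not settled, at 0.15 with all retinas and -0.72 without the 3 retinas with lens transcripts, where it passed. That fit left 2 LGI and 3 HGI retinas in the younger groups.

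After 12 months on the diets Atf3 was lower in HGI than in LGI retinas. It held 12.2, 17.1, 15.4 and 11.8 CPM in LGI retinas 21 to 24 and 11.1, 9.93, 9.96 and 11.7 CPM in HGI retinas 17 to 20. The groups did not overlap but nearly touched, at 11.8 and 11.7 CPM. The log2 difference was -0.39 (SE 0.13, 95% interval -0.67 to -0.11), 1.31-fold lower, with a limma adjusted p of 0.607. Without LGI retina 22, the highest for Atf3, the difference was -0.29 and under the fold limit.

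Atf3 was the 1 of 9 members past the limits in that comparison, where 4.29% of all genes passed. Btg2 held 87.8, 98.6, 94.1 and 85.8 CPM on LGI and 73.0, 79.3, 76.1 and 82.7 CPM on HGI, lower on HGI without overlap. Its log2 difference of -0.23 (SE 0.08, limma adjusted p = 0.607) had an unadjusted p under 0.05 but was under the fold limit. Ier2 held 2.55, 2.34, 2.69 and 2.40 CPM on LGI and 3.14, 2.88, 3.94 and 2.98 CPM on HGI, again without overlap, with a log2 difference of 0.35 (SE 0.20, limma adjusted p = 0.699). These 3 of 9 members were free of overlap, where 5.29% of all genes were. The hepatocyte marker sum was 22.3 to 118 CPM in these LGI retinas and 17.1 to 22.9 CPM in the HGI retinas, and its part in the result was not tested. Atf3 in liver itself stood at 0.202 to 2.05 CPM, below every retina.

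Egr1 was the member with the largest fitted difference after 12 months without passing. It held 14.2, 13.5, 22.2 and 8.23 CPM on LGI and 19.9, 32.6, 48.8 and 23.9 CPM on HGI, and the groups overlapped between 19.9 and 22.2 CPM. The log2 difference was 1.07 (SE 0.63, 95% interval -0.25 to 2.40, limma adjusted p = 0.711). It passed when the fit held only these 2 groups (1.08) and when the 3 retinas with lens transcripts, all from the younger groups, were left out (1.07). Fos held 12.9, 12.0, 18.0 and 13.3 CPM on LGI and 10.4, 16.3, 22.0 and 14.4 CPM on HGI and overlapped widely.

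Between 1 and 12 months on the LGI diet, Atf3 was higher and Jun was lower in the older retinas. Atf3 held 7.87, 7.91, 8.42 and 9.20 CPM in the younger retinas and, as above, 11.8 to 17.1 CPM in the older ones, without overlap. The log2 difference was 0.75 (SE 0.14, 95% interval 0.46 to 1.05), 1.69-fold, with a limma adjusted p of 0.0203. It ran from 0.66 to 0.83 with each retina left out in turn. Over 7 alternative fits, among them that without the 3 retinas with lens transcripts, it ran from 0.72 to 0.76 and passed in each. Atf3 was the only member tested with an adjusted p under 0.05 in any of the diet or age comparisons fitted here, and 1.45% of all genes had one in this comparison.

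Jun held 16.7, 14.1, 13.1 and 14.4 CPM in the younger LGI retinas and 9.94, 10.8, 10.9 and 9.01 CPM in the older ones. The groups did not overlap, and the log2 difference was -0.51 (SE 0.13, 95% interval -0.79 to -0.23), 1.43-fold lower, with a limma adjusted p of 0.0636. It ran from -0.57 to -0.44 with each retina left out in turn. Over the same 7 alternative fits, among them that without the 3 retinas with lens transcripts, it ran from -0.53 to -0.39 and passed in each. Atf3 and Jun were the 2 of 9 members past the limits, where 10.9% of all genes passed. Btg2 was also free of overlap, at 77.3 to 82.0 CPM in the younger and 85.8 to 98.6 CPM in the older retinas, with a log2 difference of 0.19 (limma adjusted p = 0.265) under the fold limit. Thus 3 of 9 members were free of overlap, where 9.15% of all genes were.

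Fos and Egr1 were less variable in the older LGI retinas, at 12.0 to 18.0 CPM and 8.23 to 22.2 CPM, than in the younger ones, at 7.31 to 34.4 CPM and 9.19 to 63.0 CPM. This difference in spread was not tested. Their log2 differences with age were -0.47 (limma adjusted p = 0.676) and -0.94 (limma adjusted p = 0.53). With all retinas DESeq2 called Egr1 (-1.23), and library quality weights called both, at -0.80 for Fos and -1.11 for Egr1. Both passed without LGI 1-month retina 1, at -0.97 for Fos and -1.48 for Egr1. Both also passed without the 3 retinas with lens transcripts, at -1.04 and -1.43.

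Of 13 marker lists for cells a retina sample could hold, 1 was free of overlap with age on LGI. The summed 4 ganglion cell markers were 610 to 870 CPM in the younger and 533 to 595 CPM in the older LGI retinas. Among markers of neighbouring tissue, the sum for retinal pigment epithelium was 81.4 to 116 CPM in the younger and 86.5 to 240 CPM in the older LGI retinas. On HGI it was 66.5 to 122 CPM in the younger and 144 to 374 CPM in the older retinas. The part of either in the age differences of Atf3 and Jun was not tested.

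On the HGI diet 0 of 9 members passed the limits with age in the retina, where 4.14% of all genes did, with 1 unadjusted limma p under 0.05 (Btg2, beside 5.8% of all genes), 0 members called by edgeR and 1 by DESeq2. The log2 differences ran from -0.52 to 0.25, and 0 of 9 members were free of overlap, where 4.37% of all genes were. Atf3 held 7.39, 10, 10 and 8.71 CPM in the younger HGI retinas against 9.93 to 11.7 CPM in the older ones, and Jun held 15.7, 15.9, 13.2 and 12.2 CPM against 13.7, 11.2, 13.1 and 10.4 CPM. The member DESeq2 called was Nr4a1, with a log2 difference of -0.65, and it also passed without HGI retina 8 (-0.76).

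**Figure D3:**
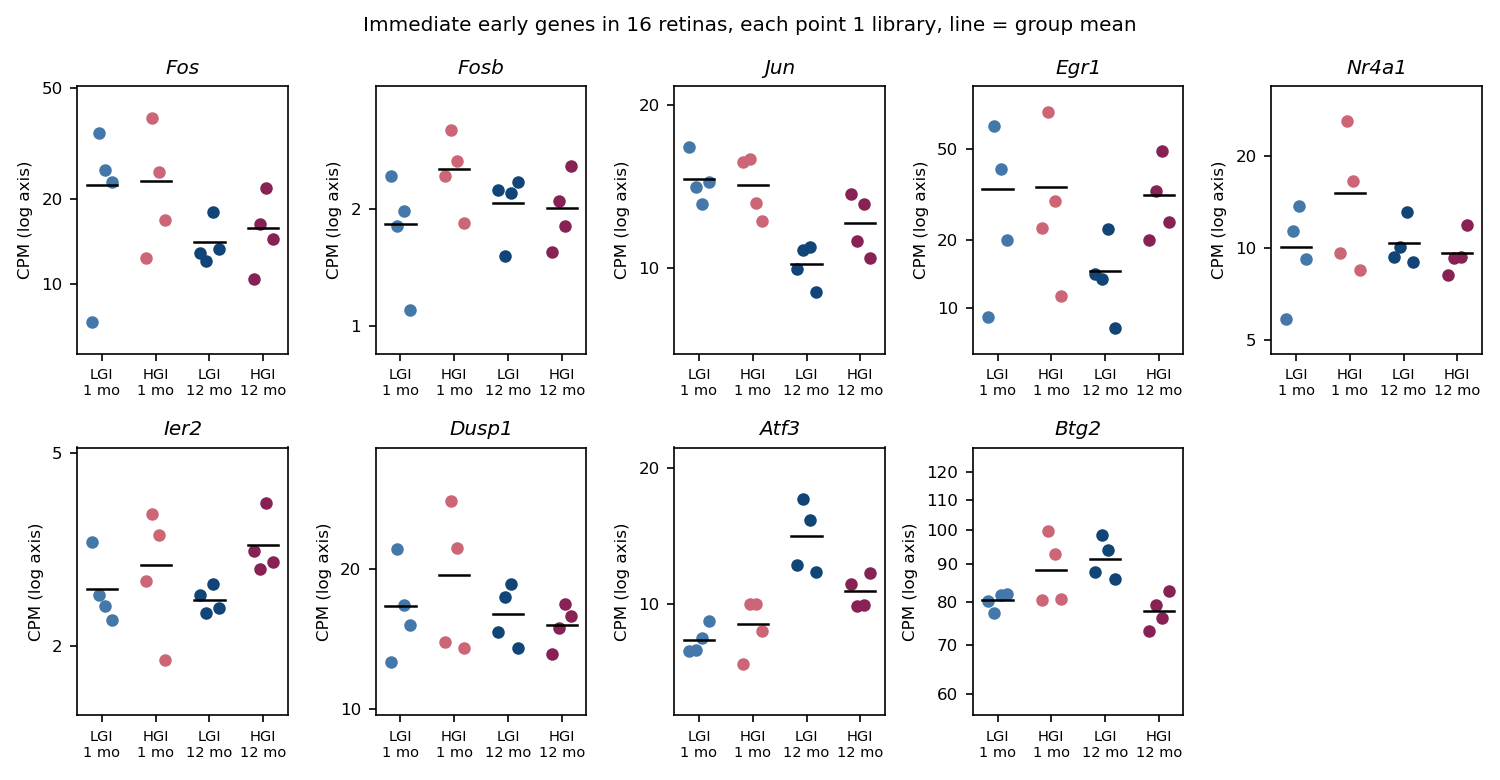
CPM of each tested member in the 16 retinas on log axes, by diet and feeding length, with each point a retina and a bar at the group mean. Atf3 lies higher in the older LGI retinas (11.8 to 17.1 CPM) than in the younger ones (7.87 to 9.20 CPM), and Egr1 spreads widely within groups.

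Whether the diet difference itself changed between 1 and 12 months was tested as an interaction. In retina 2 of 9 members passed, both downward, where 8.81% of all genes passed in either direction and 3.08% downward. For Atf3 the HGI minus LGI difference was lower by 0.50 on the log2 scale after 12 months than after 1 month (interaction -0.50, SE 0.20, 95% interval -0.92 to -0.09, limma adjusted p = 0.399). For Btg2 the interaction was -0.37 (SE 0.11, 95% interval -0.61 to -0.13, limma adjusted p = 0.32). Btg2 held 80.5, 99.7, 93.0 and 80.8 CPM in the younger HGI retinas, so HGI retinas reached higher than the 77.3 to 82.0 CPM of LGI retinas at 1 month and lay lower at 12 months.

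Without HGI 1-month retina 6 the interaction of Btg2 was -0.31, under the fold limit. Without the 3 retinas with lens transcripts that of Atf3 was -0.41 and no longer passed, and Egr1 passed at 2.02 against 1.02 (limma adjusted p = 0.711) with all retinas. The interaction, the 12-month diet difference and the LGI age difference all use the LGI 12-month retinas.

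In the liver, Egr1 was lower after 1 month on the HGI diet. It held 14.6, 4.00, 3.36 and 4.74 CPM in LGI livers 33 to 36 and 1.62, 0.901 and 1.64 CPM in HGI livers 38 to 40. Liver 33 was high, the groups did not overlap, and the other LGI livers were still at least 3.36 CPM. The log2 difference was -2.17 (SE 0.82, 95% interval -3.91 to -0.42), 4.49-fold lower, with a limma adjusted p of 0.905. It ran from -2.44 to -1.58 with each liver left out in turn, and without HGI liver 39 it was -1.80 and no longer past the limit.

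Egr1 was the 1 of 8 members past the limits in that comparison, where 3% of all genes passed and 1.01% passed downward. It was also the 1 of 8 free of overlap, where 7.57% of all genes were. Fos held 0.594, 0.290, 0.133 and 0.404 CPM on LGI and 0.270, 0.113 and 0.409 CPM on HGI, and so overlapped. Dusp1 held 17.2, 7.97, 4.30 and 4.84 CPM on LGI and 5.68, 10.9 and 14.5 CPM on HGI. The log2 differences of the 7 members not past the limits ran from -0.54 to 0.50, and liver 33 was the highest on LGI for Fos, Jun, Egr1, Nr4a1, Ier2 and Dusp1.

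After 12 months 0 of 8 members passed between diets in liver, where 7.35% of all genes did, and 0 were free of overlap, where 8.46% of all genes were. None had an unadjusted limma p under 0.05 (10.9% of all genes had), while edgeR called 1 (Nr4a1, 2.37) and DESeq2 called 2 (Nr4a1, 2.43, and Egr1, -1.17). Nr4a1 held 0.417, 0.148, 0.373 and 0.305 CPM on LGI and 0.265, 4.42 and 0.377 CPM on HGI. The HGI mean therefore rested on liver 51 alone, and the other 2 HGI livers lay inside the LGI range. Egr1 held 23.1, 5.85, 4.61 and 4.88 CPM on LGI, with liver 53 far above the rest, and 2.71, 5.76 and 4.29 CPM on HGI. Without HGI liver 50 Fos passed (1.07). Fos and Nr4a1 entered the test only through HGI groups, so calls of them as higher on HGI here are a description.

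With age on the HGI diet, Fos and Btg2 were higher in the older livers. Fos held 0.270, 0.113 and 0.409 CPM in the younger and 0.496, 1.15 and 1.18 CPM in the older HGI livers. The groups did not overlap, on 3 to 29 counts per liver over all 14 livers, and the log2 difference was 1.82 (SE 0.60, 95% interval 0.54 to 3.09), 3.52-fold, with a limma adjusted p of 0.398. Because Fos entered the test only through the older HGI livers, this call is a description of that group. Without HGI liver 39 the difference was 1.19 and no longer passed.

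Btg2 held 3.79, 2.97 and 3.22 CPM in the younger and 7.35, 17.4 and 5.71 CPM in the older HGI livers. The groups did not overlap, and the log2 difference was 1.48 (SE 0.48, 95% interval 0.46 to 2.50), 2.78-fold, with a limma adjusted p of 0.394. It ran from 0.99 to 1.77 with each liver left out in turn. Egr1 was also free of overlap, at 0.901 to 1.64 CPM in the younger and 2.71 to 5.76 CPM in the older livers (1.63, SE 0.87, limma adjusted p = 0.707), and edgeR (1.65) and DESeq2 (1.63) called it. The fits on the 2 groups compared (1.62), with no filter (1.62) and with library quality weights (2.00) also called Egr1. No fit with a liver left out did. With Fos left aside, 1 of 7 members was past the limits, where 5.37% of all genes were and 4.39% upward, and 2 of 7 were free of overlap, where 15.2% of all genes were.

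Of 7 marker lists for cells of the liver and its blood, 3 were free of overlap in this comparison, all higher in the older HGI livers. The summed 5 hepatic stellate cell markers were 194 to 231 CPM in the younger and 324 to 383 CPM in the older livers, the hepatocyte sum was 84900 to 85800 and 91300 to 94600 CPM, and the neutrophil sum was 1.35 to 1.54 and 2.65 to 30.5 CPM. The leukocyte sum, at 32.9 to 104 and 85.5 to 222 CPM, and the sum for Kupffer cells, the resident macrophages, at 29.6 to 132 and 93.3 to 359 CPM, overlapped. The highest neutrophil, leukocyte and Kupffer cell sums were in HGI 12-month liver 52, which held the highest Fos (1.18 CPM) but the lowest Btg2 (5.71 CPM) of its group. Their part in the result was not tested.

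On the LGI diet 0 of 8 members passed with age in liver, where 7.21% of all genes did, and 0 were free of overlap, where 6.74% were. None had an unadjusted limma p under 0.05 (13.5% of all genes had), edgeR called 1 (Btg2, 0.92) and DESeq2 called 2 (Btg2, 0.93, and Nr4a1, -1.73). Btg2 held 4.23, 4.11, 4.60 and 2.42 CPM in the younger and 7.87, 13.5, 3.96 and 4.58 CPM in the older LGI livers, so 2 of the older livers lay inside the range of the younger ones. Nr4a1 held 1.73, 1.42, 0.633 and 0.303 CPM against 0.148 to 0.417 CPM. Leaving out 1 liver added Fos without liver 33 (1.16), Atf3 without liver 53 (1.23) or Btg2 without liver 55 (0.93). Atf3 entered the test only through the older LGI livers, so its call there is a description.

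In the liver the interaction was passed by 0 of 8 members, where 3.52% of all genes passed, with 0 unadjusted limma p-values under 0.05 (3.99% of all genes had one) and 0 called by edgeR and DESeq2. The interactions ran from -0.56 to 1.68, and Egr1 passed without LGI liver 53 (1.84). Jun, Ier2, Dusp1 and Atf3 are not named by a liver call with all livers. Over the 14 livers Jun ran from 2.18 to 7.60 CPM, Ier2 from 0.992 to 3.56 CPM, Dusp1 from 4.3 to 17.2 CPM and Atf3 from 0.202 to 2.05 CPM.

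**Figure D4:**
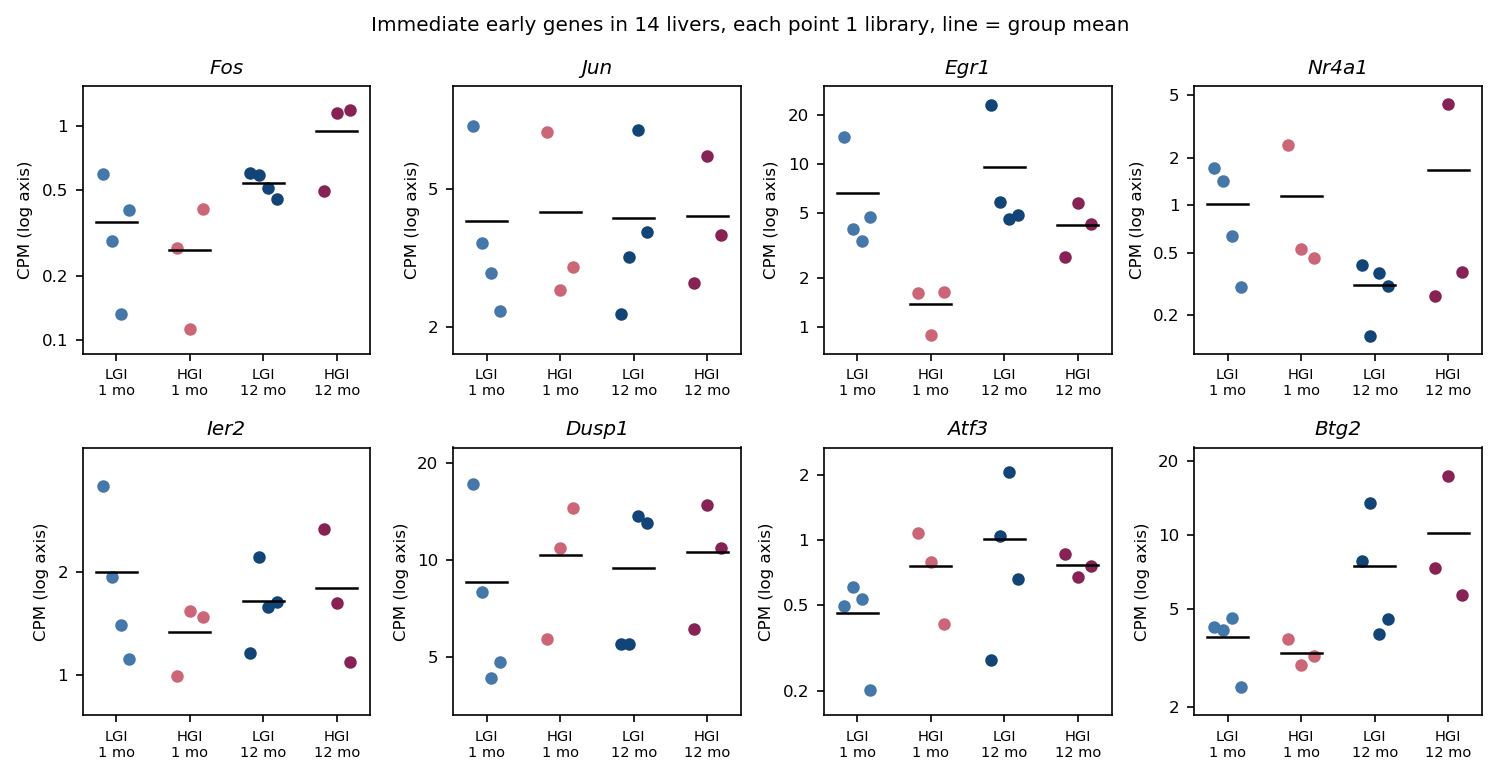
CPM of the members in the 14 livers on log axes, by diet and feeding length, with each point a liver and a bar at the group mean. Egr1 is lower in the 3 HGI livers at 1 month (0.901 to 1.64 CPM) than in the 4 LGI livers (3.36 to 14.6 CPM), and Nr4a1 reaches 4.42 CPM in 1 HGI liver at 12 months.

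**Figure D5:**
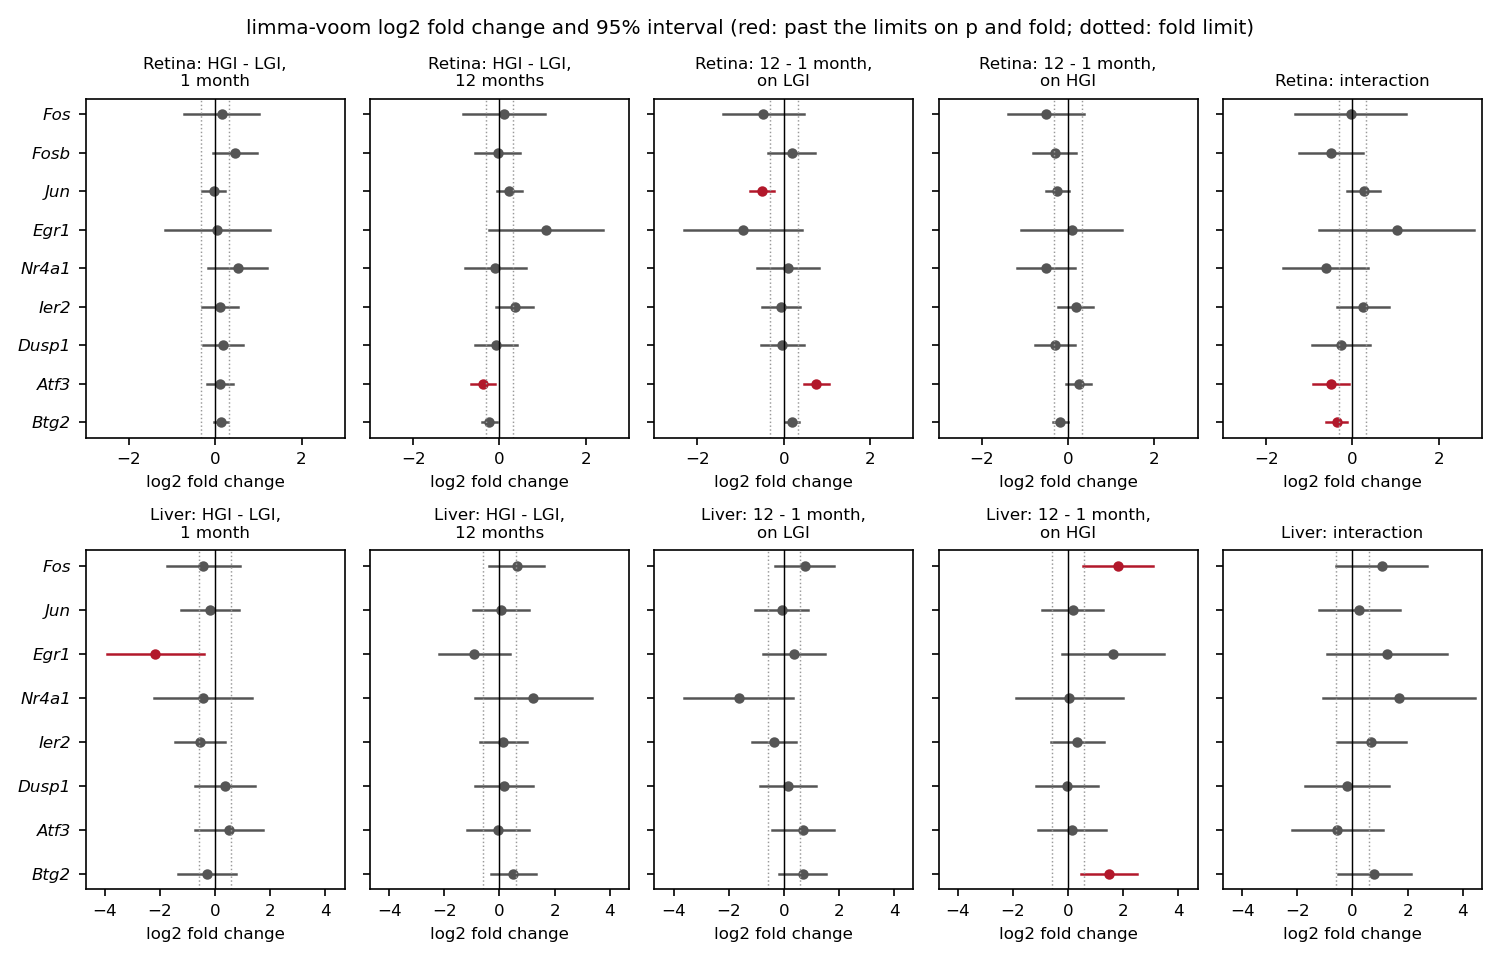
limma-voom log2 fold changes of the tested members with 95% intervals in each comparison and tissue, with dotted lines at the fold limits and red for members past the limits on p and fold. Intervals are narrow for Btg2, Jun and Atf3 in retina and wide for Egr1 and Fos in both tissues.

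The wider immediate early response was followed in 40 further genes, of which 34 were tested in retina and 30 in liver. With age on LGI in retina 3 were higher and 2 lower past the limits and 29 did not pass, so that 5 of 34 passed where 10.9% of all genes did. The AP-1 partner Maff was higher by 1.35 (limma adjusted p = 0.0482), the small GTPase gene Rhob lower by a log2 difference of -0.55 (limma adjusted p = 0.036), Gadd45b higher by 0.62, Socs3 higher by 0.58 and the mRNA decay factor Zfp36l1 lower at -0.47. Older and younger LGI retinas averaged 1.0 and 0.389 CPM for Maff and 1.47 and 0.983 CPM for Socs3. Of these 2 groups only the older, where both were high, reached the filter's 1 CPM, so both calls are a description. The median of the 34 was 0.06 against 0.02 for all genes. Between diets after 12 months in retina 2 were higher and 3 lower (4.29% of all genes passed), with Rhob at 0.39 and Zfp36l1 at 0.34, and Fosl2, an AP-1 subunit, at -0.77, the kinase gene Sik1 at -0.69 and the neuronal activity factor Npas4 at -0.52, none with an adjusted p under 0.05. After 1 month 0 of 34 passed in retina by limma (1.57% of all genes did), with 1 unadjusted p under 0.05, and with age on HGI 3 of 34 passed (4.14%).

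In liver 1 of 30 passed between diets after 1 month (3% of all genes), the Nr4a1 relative Nr4a2, higher on HGI by 1.15. Nr4a2 averaged 1.28 CPM in these HGI livers and 0.837 CPM in the LGI livers. Of these 2 groups only HGI was over the 1 CPM of the filter, so this call is a description. After 12 months 3 of 30 passed (7.35% of all genes), with Plk2 higher on HGI at 0.64 and 2 lower, the transcription factor Cebpb at -1.01 (limma adjusted p = 0.148) and the mRNA decay factor Zfp36 at -0.70. With age on LGI 5 of 30 were higher and 0 lower (7.21% of all genes passed), among them Cebpd at 1.32 and Cebpb at 0.63. With age on HGI 3 were higher and 1 lower (5.37% of all genes passed), with Sik1 at 1.74, Gadd45g at 1.77, Myc at 1.97 and Nr4a2 at -1.79. Older and younger HGI livers averaged 0.874 and 0.244 CPM for Gadd45g, 3.24 and 0.663 CPM for Myc and 0.419 and 1.28 CPM for Nr4a2. For Cebpd, older and younger LGI livers averaged 1.41 and 0.626 CPM. Of the 2 groups compared, only that in which each was high reached or neared the filter's 1 CPM. The calls of these 4 genes with age are therefore a description. The medians of this list ran from -0.14 to 0.34 over these 4 liver comparisons, where those of all genes ran from -0.02 to 0.01.

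The kinases and factors that drive these genes were followed as 22 SRF, CREB and ERK regulators. In the retina 0 passed by limma in the 4 diet and age comparisons, where 1.57% to 10.9% of all genes did, with 0 to 4 unadjusted p-values under 0.05. The retina interaction was passed by 1 of 22, the kinase gene Rps6ka5 (0.43, limma adjusted p = 0.39), where 8.81% of all genes passed. In liver the ERK effector kinase gene Rps6ka1 was higher on HGI after 1 month (2.17-fold, limma adjusted p = 0.669) and after 12 months (2.37-fold, limma adjusted p = 0.121), without overlap both times, and Elk3 was higher after 12 months (0.76). These were 1 of 21 regulators after 1 month (3% of all genes) and 2 of 21 after 12 months (7.35%). Of the 7 liver marker lists 0 were free of overlap between diets after 1 month and 4 after 12 months, all higher on HGI. After 12 months the Kupffer cell sum was 93.3 to 359 CPM on HGI and 21.5 to 76.1 CPM on LGI. The leukocyte sum was 85.5 to 222 and 46.3 to 64.7 CPM, and the other lists were stellate cells and neutrophils. Their part in the Rps6ka1 and Elk3 calls was not tested. With age 0 of 21 passed on either diet, where 7.21% of all genes did on LGI and 5.37% on HGI. Of the ERK feedback inhibitors, relatives of Dusp1 and the Sprouty proteins, 11 were tested in retina and 7 in liver. Spry2 was lower with age on LGI in retina (-0.56, limma adjusted p = 0.0127), and Spry4 in liver was lower on HGI after 12 months (-0.89) and higher with age on LGI (0.73).

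Lists of stress, hormone and time of day were read beside the members. With age on LGI 6 of 12 glucocorticoid response genes were higher in liver (7.21% of all genes passed), with a list median of 1.27 against 0.01 for all genes, led by Lcn2 at 3.24 and Fkbp5 at 1.77. Between diets after 12 months 3 of 12 were lower on HGI in liver (7.35% of all genes passed), with a list median of -0.70, Tsc22d3 at -1.23 and Pck1 at -0.68. With age on HGI 1 of 12 passed (5.37% of all genes did), Fkbp5, higher by 1.35. In retina 4 of 10 were higher with age on LGI (10.9% of all genes passed), among them Fkbp5 at 0.60 (limma adjusted p = 0.0239) and Zbtb16 at 0.88. The same comparison held the Atf3 and Jun calls in retina, and a part of these genes in that result was not tested.

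Heat shock genes in liver had medians of opposite sign with age on the 2 diets. On LGI 3 of 11 were higher (7.21% of all genes passed), with a list median of 0.19 and Hspa8 at 0.70 (limma adjusted p = 0.0307). On HGI, the comparison that held the Fos and Btg2 calls, the 11 ran from -0.90 to -0.02 with a median of -0.50. Of these 8 were free of overlap (15.2% of all genes were), but 1 passed the limits, Hsp90aa1 at -0.86 (5.37% of all genes passed), and their part in the Fos and Btg2 result was not tested. After 12 months 3 of 11 were lower on HGI than on LGI (7.35% of all genes passed), with Hspa8 at -0.59. Of clock genes, 13 in liver and 14 in retina, 0 to 2 passed in each diet or age comparison, where 1.57% to 10.9% of all genes did. In liver Nr1d1 was lower with age on LGI (-1.43) and higher on HGI after 12 months (1.00), and Ciart in retina was lower on HGI after 12 months (-0.39).

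The genes whose levels were most like the mean of the members were, over the 16 retinas, Add1 (Pearson r = 0.86), Mlx (0.85), Dag1 (0.81), Phf13 (0.81) and Nbas (0.80), out of 15045 searched. Over the 14 livers they were Sik1 (0.72), Igkv3-2 (0.70), Lipt2 (0.70), Setmar (0.70) and Spata2 (0.69), out of 11529. Sik1 is the 1 of these 10 that is on the list of other immediate early genes. Libraries share depth and group, and no p is given for these values.

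Transcript counts showed which annotated RNAs carried the members. Fos-201 held 92.1% to 99.1% of the Fos counts in each retina, the leading Egr1 transcript 92.0% to 100% of Egr1 and Dusp1-206 84.4% to 95.6% of Dusp1. Retained-intron transcripts held 2.78% to 11.2% of Dusp1 counts in retinas and 3.99% to 22.8% in livers, and 1.91% to 10.1% of Nr4a1 counts in retinas. For Atf3 the shares swung between near-identical models, with Atf3-203 at 24.7% to 100% per retina and Atf3-201 at 0% to 75.3%. The longest Nr4a1 model likewise ran from 23.7% to 92.4% per retina, and Fosb-205 from 0% to 91.5%. Gene totals, not these shares, were used for every comparison of Atf3, Nr4a1 and Fosb.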

How the data were processed

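RNA from 14 livers and 16 retinas was sequenced as stranded mRNA libraries. Per the labels and the study's methods, the authors made estimated counts per transcript with kallisto on Ensembl v104 (GRCm39) and summed them to genes, as deposited. A second deposited table of normalized signal, scaled by the authors with edgeR after removal of low genes and of retinal genes from livers, was used only to limit the liver genes tested. Counts were rounded, genes with a group mean above 1 CPM over unscaled library totals were kept (11537 in liver, 15054 in retina), and limma 3.58.1 with voom and TMM factors was fitted to 4 group means per tissue in R 4.3.3, with two-sided tests. CPM elsewhere is over the TMM-scaled library, and log2 CPM has a prior count of 2. Benjamini-Hochberg adjustment was over all genes tested. edgeR 4.0.16, DESeq2 1.42.0, other size factors, no filter, fits on 2 groups, quality weights and leaving out each library were alternatives. Permutations used 100000 resamples. Levels per length used transcript lengths of an older annotation release, which held 98.9% to 99.1% of the counts. On simulated data the fit found 96.5% to 100% of 200 genes changed by 1.5 on the log2 scale between diets. Those genes were given the usual spread of genes at their level, so this rate does not apply to members that varied more, which in liver were all 8. No pair of libraries held identical values, and the mice of a group were separate animals per the study's methods. All members were named, as were up to 5 other immediate early genes past the limits per comparison by p, 2 per further list, and the 5 genes most like the mean of the members. The members and lists were chosen with earlier results of these data known. Counting error limits the scarce members, with 11.3 counts at 1 CPM in the smallest liver library.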

Additional observations from a re-analysis of the deposited data

Results flagged for a closer look

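In 52 pairs of a member and a group of 4 libraries, 2 held a library far from the other 3, and chance gives about 1 in 20. Egr1 in LGI 12-month liver 53 stood at 23.1 CPM against 5.85 CPM in the nearest liver of its group, a gap of 0.852 of the group's range on the log2 scale. Fosb in LGI 12-month retina 22 stood at 1.51 CPM against 2.20 CPM in the nearest retina, a gap of 0.843 of the range on that scale. In retina the diet difference of Atf3 differed between feeding lengths by -0.50 on the log2 scale (limma interaction adjusted p = 0.399), and that of Btg2 by -0.37 (limma interaction adjusted p = 0.32).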

How the results depend on the processing

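No replicate number occurs in more than 1 group, and the labels do not say which livers and retinas came from the same mouse. Livers and retinas can share mice, but the fit of retina against liver used no pairing and took all libraries as separate. Over the alternatives that kept all libraries or left out the retinas with lens transcripts, single members gave 163 values with the same direction and side of the limits, 17 newly past them, 2 no longer past them and 11 with the opposite sign. With library quality weights the members past the limits numbered 3 between diets at 12 months in liver (0 with equal weights), 4 with age on HGI in liver (2), 2 for the liver interaction (0), 4 between diets at 1 month in retina (0), 3 at 12 months (1), 4 with age on LGI in retina (2) and 2 on HGI (0). edgeR called 1 and DESeq2 2 members between liver diets at 12 months and likewise 1 and 2 with age on LGI in liver, against 0 by limma, and DESeq2 called 1 with age on HGI in retina, against 0. DESeq2 also added Egr1 with age on LGI in retina. A fit on only the 2 groups compared called 1 with age on LGI in liver and 3 between retina diets at 12 months. Without the 3 retinas with lens transcripts, an alternative chosen after the data were seen, the retina counts were 1 between diets at 1 month, with Fos at -0.72, 2 at 12 months and 4 with age on LGI. The share of all genes past the limits was not taken under these alternatives. A change in these counts is therefore not a result about the members.

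With each library left out in turn the counts ran from 0 to 1 for both liver diet comparisons, for age on LGI in liver, for the liver interaction, between retina diets at 12 months and for age on HGI in retina. They ran from 1 to 2 for age on HGI in liver and for the retina interaction, from 0 to 2 between retina diets at 1 month, where Fos ran from -0.35 to 0.44, and from 2 to 4 with age on LGI in retina. The liver counts here and in the paragraph above include Fos and Nr4a1 called higher on HGI. They also include Fos called higher in older HGI livers and Atf3 in older LGI livers. These members entered the test only through such groups, so those calls are a description. Library totals without scaling factors, also chosen after the data were seen, put Ier2 0.74 and Dusp1 0.82 higher in retina than in liver. With group means kept, 0 members were related to Fos in liver past the adjusted limit, and r changed sign for Ier2 (0.09) and Atf3 (0.02) in liver and for Fosb (0.06), Jun (0.20) and Atf3 (-0.19) in retina. Near 0, Ier2 in liver moved to 0.01 with a prior count of 0.5 and -0.01 with relative log expression factors, and Fosb in retina to 0.03 with the latter. The cause of these changes was not tested. Depth limits Fos, Fosb, Junb, Nr4a1 and Atf3 in liver, where a library can hold under 10 counts.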
